A study of Mus musculus with 2 samples.

Results

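Open chromatin was described at the 90 cytochrome P450 genes among the 22380 protein-coding genes of the mm9 mouse annotation, taken as those whose symbol is Cyp followed by a number, a letter and a number. The assay was ATAC-seq, which marks open DNA by letting a transposase cut it and add adapters, and the cells were ileal enteroids, epithelial cultures grown from crypts. Control enteroids were labelled WT and carried, by the study's methods, Taf4 lox/lox alleles without Cre. Taf4-inactivated enteroids were labelled KO and carried the same floxed alleles with VilCreERT2, a Cre recombinase that the Villin promoter drives in intestinal epithelium and that acts only once tamoxifen is given. Taf4 encodes a subunit of TFIID, the general transcription factor that binds core promoters. The mice were 4 months old and of strain C57Bl6/129sv, and both cultures received 1 µM 4-hydroxytamoxifen (4-OHT) for 3 days. Each genotype had 1 library without a replicate, so the values describe these 2 libraries and no test between genotypes could be made.

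Cytochrome P450 enzymes are haem proteins that insert oxygen into their substrates, with electrons from P450 oxidoreductase in the endoplasmic reticulum or from ferredoxin in mitochondria. Families CYP1 to CYP4 handle mainly foreign compounds, drugs and fatty acids, and many of their genes lie in tandem arrays of near copies. Families with higher numbers make or break down bile acids, steroid hormones, vitamin D and retinoic acid. Liver is the main site of many of these enzymes, and the small intestine is the tissue where ingested compounds first meet CYP3A and CYP2 enzymes. In liver and gut, HNF4 and other nuclear receptors bind promoters of this family, and the aryl hydrocarbon receptor induces the CYP1 genes.

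Each gene was described by the peaks that the authors called in each library. A start site peak was any peak within 1 kb of an annotated transcript start of the gene, and the one of highest fold enrichment stood for the gene. As fold enrichment is relative to the background of its own library, peaks were set side by side by the percentile of their fold within their own list. The promoters shown run from 100 bases before the annotated 5′ end to the first 30 transcribed bases, on the gene's strand. Capitals mark matches, on either strand, to the motifs spelled out further on. The first set holds the 4 genes with the highest start site peaks among those with one in Taf4-inactivated enteroids only, and shows promoters of the drug and fatty acid metabolising subfamilies CYP2C, CYP2D and CYP3A.
Cyp2c65 (chr19:39135405-39135534, plus strand): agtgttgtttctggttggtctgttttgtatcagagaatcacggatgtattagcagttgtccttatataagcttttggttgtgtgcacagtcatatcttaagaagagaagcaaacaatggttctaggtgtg
Cyp3a57 (chr5:146106048-146106177, plus strand): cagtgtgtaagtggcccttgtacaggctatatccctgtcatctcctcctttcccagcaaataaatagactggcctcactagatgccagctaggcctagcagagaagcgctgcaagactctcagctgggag
Cyp2d40 (chr15:82594584-82594713, minus strand): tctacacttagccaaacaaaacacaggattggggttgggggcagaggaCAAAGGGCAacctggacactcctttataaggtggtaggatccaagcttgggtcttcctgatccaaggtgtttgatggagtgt
Cyp2c66 (chr19:39188288-39188417, plus strand): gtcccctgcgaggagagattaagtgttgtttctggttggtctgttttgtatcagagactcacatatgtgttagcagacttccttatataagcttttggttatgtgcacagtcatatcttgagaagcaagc

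The second set holds the 4 genes with the highest start site peaks among those with one in control enteroids only. It shows 2 promoters of the CYP2J array, both with a match to the core of the xenobiotic response element.
Cyp4x1 (chr4:114806857-114806986, minus strand): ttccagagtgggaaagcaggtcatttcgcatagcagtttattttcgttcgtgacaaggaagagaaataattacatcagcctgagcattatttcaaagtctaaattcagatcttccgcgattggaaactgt
Cyp2j13 (chr4:95744208-95744337, minus strand): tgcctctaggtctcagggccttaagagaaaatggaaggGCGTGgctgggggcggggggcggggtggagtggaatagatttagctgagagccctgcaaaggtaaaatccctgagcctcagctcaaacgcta
Cyp2j12 (chr4:95807814-95807943, minus strand): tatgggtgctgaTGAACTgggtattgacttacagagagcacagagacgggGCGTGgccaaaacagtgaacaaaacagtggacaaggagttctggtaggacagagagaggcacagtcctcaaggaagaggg
Cyp2f2 (chr7:27904828-27904957, plus strand): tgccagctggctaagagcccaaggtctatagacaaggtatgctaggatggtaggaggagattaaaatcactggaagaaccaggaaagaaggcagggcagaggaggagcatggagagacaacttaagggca

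The third set holds the 4 genes with the highest control start site peaks, all present in both lists. Within 250 bp of the 5′ end, the ratio of observed to expected CpG was 0.890 at Cyp20a1 and 0.713 at Cyp39a1. It was 0.547 at Cyp1b1 and 0.0378 at Cyp3a13. The shorter stretch printed for Cyp39a1 itself holds little CpG.
Cyp20a1 (chr1:60400067-60400196, plus strand): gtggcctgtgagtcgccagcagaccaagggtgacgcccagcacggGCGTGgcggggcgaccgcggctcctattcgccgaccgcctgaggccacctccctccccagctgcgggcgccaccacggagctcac
Cyp39a1 (chr17:43804274-43804403, plus strand): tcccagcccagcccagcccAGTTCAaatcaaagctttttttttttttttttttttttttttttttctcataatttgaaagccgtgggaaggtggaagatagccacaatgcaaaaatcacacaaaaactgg
Cyp3a13 (chr5:138362818-138362947, minus strand): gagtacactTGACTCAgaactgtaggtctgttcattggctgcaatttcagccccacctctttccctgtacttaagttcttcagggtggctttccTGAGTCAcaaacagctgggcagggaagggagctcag
Cyp1b1 (chr17:80114372-80114501, minus strand): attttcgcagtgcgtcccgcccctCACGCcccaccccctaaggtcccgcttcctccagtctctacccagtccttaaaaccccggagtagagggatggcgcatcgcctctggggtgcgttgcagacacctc

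In control enteroids a start site peak was present at 46 of the 90 P450 genes (51.1%, exact 95% interval 40.35 to 61.8), against 68.4% of all protein-coding genes. In Taf4-inactivated enteroids it was present at 51 genes (56.7%, 45.8 to 67.1), against 65.5%, a share that the interval includes. The lists shared 38 genes (42.2%, against 62.7%), and 31 genes had a start site peak in neither (34.4%, against 28.7%). P450 genes thus had more start site peaks in the Taf4-inactivated than in the control list, whereas protein-coding genes in general had fewer. With peaks kept at a −log10 q of at least 2 in both lists, this contrast held, with 36 and 43 P450 genes (40% in control and 47.8%), against 60.65% and 60.2%. At 5 or more it was lost, as both had more in the Taf4-inactivated list. There the shares were 13.3% in control (12 genes) and 33.3% (30 genes) for P450 genes, and 35.5% and 46.5% for protein-coding genes.

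Genes with a peak in Taf4-inactivated enteroids only numbered 13 (14.4%, exact 95% interval 7.92 to 23.4), against 2.90% of all protein-coding genes. With peaks kept at a −log10 q of at least 5 in both lists, 20 genes (22.2%, against 12.4%) had this call. The 13 genes were 5 CYP2C genes (Cyp2c55, Cyp2c65, Cyp2c66, Cyp2c29 and Cyp2c38), 2 CYP2D genes (Cyp2d9 and Cyp2d40), 2 CYP2J genes (Cyp2j11 and Cyp2j5), 2 CYP3A genes (Cyp3a57 and Cyp3a11), Cyp4f39 and Cyp8b1. Genes with a peak in control enteroids only numbered 8 (8.89%, 3.92 to 16.8), against 5.70% of all protein-coding genes, and included no CYP2C, CYP2D or CYP3A gene. They were Cyp2j12, Cyp2j13, Cyp4x1, Cyp2f2, Cyp4f18, Cyp1a2, Cyp2r1 and Cyp21a1. The intervals cover counting error alone, and neighbouring copies in an array are not independent of each other.

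The strength of the peaks present in 1 list only was as follows. The 13 found in Taf4-inactivated enteroids lay between percentiles 25.6 and 92.7 of their list (median 78.05), and their −log10 q ran from 1.43 to 9.08 with a median of 5.43. The 8 found in control enteroids lay between percentiles 17.6 and 92.6 (median 60.5), with a −log10 q from 1.27 to 5.20 and a median of 1.95. A −log10 q of at least 5 was reached by 8 of the 13 and by 1 of the 8, Cyp4x1. Over all protein-coding genes with a peak in 1 list only, it was reached by 15.3% of the 648 in Taf4-inactivated enteroids, with a median percentile of 43.6, and by 1.72% of the 1276 in control, with a median of 42.2. The Taf4-inactivated peaks thus had the higher −log10 q among protein-coding genes in general as well. The peak reached an annotated start site in 11 of the 13 genes and in 4 of the 8. In control enteroids the peaks of Cyp2j13 and Cyp2f2 lay only 15 and 34 bp from it, and those of Cyp4f18 and Cyp1a2 388 and 945 bp. In Taf4-inactivated enteroids those of Cyp2d40 and Cyp2j5 lay 312 and 877 bp away. The same shares over all protein-coding genes are not given here. The call itself left little room for a peak of the other list to overlap the start site peak, and none did in the 21 genes. The library of Taf4-inactivated enteroids had an estimated depth of 60.5% of that of the control library, from the background levels of 7.35 and 12.1 reads that fold and p of the peaks imply.

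As to the libraries as a whole, the control list held 90445 peaks and the Taf4-inactivated list 71282. The targeted gene, annotated as Taf4a, had a start site peak in both, at percentile 74.7 and 58.7, which does not tell if the floxed part was deleted. Of 12 intestinal epithelial markers 10 had a start site peak in each library and 2, Krt20 and Fabp2, genes of mature cells, in Taf4-inactivated enteroids only. None of 4 leukocyte markers had one, while Kdr of 3 endothelial, Col1a1 and Pdgfra of 4 stromal and Ttr of 3 hepatocyte markers had one in both lists and the endothelial Pecam1 in control only. In control and after Taf4 inactivation, Kdr ranked at percentile 93.1 and 35.9, Pdgfra at 74.3 and 33.3, Col1a1 at 10.7 and 18.1, and Ttr at 88.5 and 88.7. Among epithelial markers Lyz1, of Paneth cells, was at 50.15 and 86.2. Krt20 and Fabp2 thus had the same call as Cyp2c55, Cyp2c65, Cyp2c66 and Cyp3a11, and the part of cell composition in those calls was not tested.

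**Figure D1:**
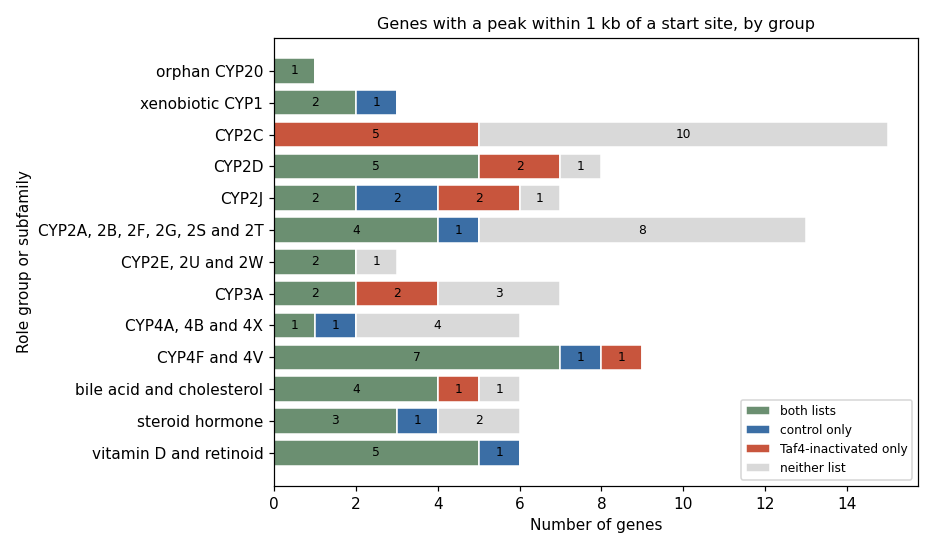
Number of P450 genes (horizontal axis) in each role group or subfamily (vertical axis) whose start site peak was found in both lists, in control only, in Taf4-inactivated only or in neither list. CYP2C genes had 5 peaks in Taf4-inactivated enteroids and 0 in control, and 10 of them had none in either.

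The CYP2C enzymes oxidise drugs and turn arachidonic acid into epoxides and hydroxy acids. Cyp2c55, Cyp2c65 and Cyp2c66 were on the intestinal list, which was chosen with earlier results of these data known. None of the 15 CYP2C genes had a start site peak in control enteroids. In Taf4-inactivated enteroids Cyp2c65 had one (chr19:39135261-39135592) of fold 3.91 at percentile 92.7, Cyp2c66 one of fold 3.29 at percentile 83.4 and Cyp2c55 one of fold 3.18 at percentile 80.8. Cyp2c38 followed at percentile 77.3 (fold 3.04) and Cyp2c29 at percentile 55.2 (fold 2.52). The Cyp2c29 peak lay at a second annotated start, 45.9 kb from the 5′ end that was used for CpG, unique words and motifs. All 5 lie side by side at one end of the array on chromosome 19, between 39081509 and 39537565, and the other 9 genes of the array had no start site peak. Cyp2c44, which lies apart, had none either, although 4 control and 6 Taf4-inactivated distal peaks lay in its window.

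The CYP3A enzymes carry out much of drug oxidation in liver and intestine, and Cyp3a11, Cyp3a13 and Cyp3a25 were on the intestinal list. Cyp3a13 had the highest peak of the subfamily. That start site peak was among the strongest of the family in both libraries, with fold 3.08 at percentile 96.7 in control and fold 4.84 at percentile 98.5 in Taf4-inactivated enteroids. Cyp3a25 had a peak in both lists as well, at percentile 92.2 and 69.7. Cyp3a57 (chr5:146105867-146106217, fold 3.79, percentile 91.3) and Cyp3a11 (fold 2.997, percentile 76.0) had one in Taf4-inactivated enteroids only. The remaining 3, Cyp3a16, Cyp3a44 and Cyp3a59, had none.

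Among the CYP2D genes, which encode further drug-metabolising enzymes, 5 of 8 showed a peak in both lists and 2 in Taf4-inactivated enteroids only. Cyp2d40 was the higher of the latter (fold 3.57, percentile 88.3) and Cyp2d9 the lower (fold 2.39, percentile 45.2). The peak assigned to Cyp2d40 lay 312 bp from the annotated start. Of the shared ones, Cyp2d26 was at 63.5 in control and at 83.25 in Taf4-inactivated enteroids, Cyp2d10 at 65.05 and 84.7, and Cyp2d34 at 52.4 and 68.1. Cyp2d22 and Cyp2d12 had the higher percentile in control enteroids, at 83.5 against 71.35 and 48.9 against 20.7. The peaks compared overlapped by 50 bp at Cyp2d22 and did not overlap at Cyp2d12. The CYP2D genes thus differed among themselves in direction, but the control-higher side rested on peaks that shared little or no sequence.

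The CYP2J enzymes make epoxides of arachidonic acid. Cyp2j6, the member best known from the small intestine, had a strong peak in both lists, ranked 94.2 in control and 92.5 after Taf4 inactivation, and Cyp2j9 followed at 78.0 and 82.9. The array was split otherwise. Cyp2j13 (fold 2.20, percentile 72.6) and Cyp2j12 (fold 2.14, percentile 66.1) had a peak in control enteroids only, and Cyp2j5 (fold 2.96, percentile 74.9) and Cyp2j11 (fold 2.22, percentile 25.6) in Taf4-inactivated enteroids only. The peak assigned to Cyp2j5 lay 877 bp from its start site.

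Of the 13 genes in the mixed array of CYP2A, 2B, 2F, 2G, 2S and 2T on chromosome 7, 8 had no start site peak in either list. Cyp2s1, expressed in epithelia, ranked 87.6 in control and 97.0 after Taf4 inactivation, and Cyp2b10, the phenobarbital-inducible drug metaboliser, at 78.8 and 89.6. Cyp2b19, known from skin, had the reverse order, with 79.3 in control and 22.45 in Taf4-inactivated enteroids. Cyp2t4 was at 47.4 and 36.2, and Cyp2f2, a lung enzyme, had a peak in control enteroids only (fold 2.11, percentile 62.4). Outside the array, the fatty acid hydroxylase Cyp2u1 was at percentile 94.1 and 91.9, Cyp2w1 at 61.8 and 8.18, and the liver ethanol oxidiser Cyp2e1 had no peak in either list.

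The CYP1 enzymes oxidise polycyclic aromatic hydrocarbons under control of the aryl hydrocarbon receptor. Cyp1b1 ranked at percentile 94.4 in control enteroids and 83.8 after Taf4 inactivation, and Cyp1a1 at 88.1 and 81.1. The differences were −10.6 and −7.04 points, beside a median of −2.78 and a lower quartile of −10.6 over all protein-coding genes with a peak in both lists. Cyp1a2, mainly a liver gene, had a weak peak in control enteroids only (fold 1.93, percentile 28.3), 945 bp from its start site.

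The CYP4 enzymes hydroxylate fatty acids and eicosanoids, and in the CYP4F array 6 of 7 genes had a start site peak in control and all 7 in Taf4-inactivated enteroids. The highest peak of Cyp4f13 was that over its 5′ end in control enteroids, at percentile 83.3, and one at another annotated start 22.1 kb away in Taf4-inactivated enteroids, at 93.6. The Taf4-inactivated peak that overlapped the one at the 5′ end of Cyp4f13 was at percentile 79.9. Cyp4f40, Cyp4f16 and Cyp4f17 were between 85.3 and 90.8 in control and between 81.3 and 84.9 in Taf4-inactivated enteroids. Cyp4f14 was at 63.95 and 68.2 and Cyp4f15 at 60.2 and 26.25. Cyp4f39, which hydroxylates very long fatty acids of the skin barrier, had a peak in Taf4-inactivated enteroids only (fold 3.07, percentile 78.05). Cyp4f18, which inactivates leukotriene in neutrophils and lies apart from the array, had one in control enteroids only (fold 1.92, percentile 25.5). Cyp4v3 was at percentile 85.75 and 94.9. In the other CYP4 array, Cyp4b1 was at 87.0 and 76.4, Cyp4x1 had the strongest of the peaks found in control enteroids only (chr4:114806269-114806789, fold 2.71, percentile 92.6), and none of the 4 Cyp4a genes had a peak.

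Of the 6 genes of bile acid synthesis and cholesterol breakdown, 4 had their peak in both lists. Cyp39a1, an oxysterol hydroxylase, ranked at percentile 97.6 in control enteroids and 99.7 after Taf4 inactivation, and its peak was shared with the start of the neighbouring gene Slc25a27. Cyp46a1, Cyp27a1 and Cyp7b1, which hydroxylate cholesterol or oxysterols, were at 78.7 and 77.15, at 71.6 and 58.95, and at 70.7 and 38.5. Cyp8b1, the hydroxylase that makes cholic acid in liver, had a peak in Taf4-inactivated enteroids only (chr9:121825236-121825643, fold 3.11, percentile 79.25). Cyp7a1, the rate-limiting enzyme of bile acid synthesis, had none in either list.

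The 6 genes of steroid hormone synthesis, which are active mainly in adrenal gland and gonad, had weak peaks in control enteroids or none, between percentiles 17.6 and 31.3. Cyp17a1, needed for androgen synthesis, had the widest difference in favour of Taf4-inactivated enteroids, with percentile 20.75 in control and 74.4 there, although the 2 peaks compared did not overlap and the control one lay 1.49 kb inside the gene. Cyp11a1 and Cyp11b1 were at 20.7 and 28.1 and at 31.3 and 15.6. Cyp21a1 had a peak in control enteroids only (fold 1.87, percentile 17.6), and Cyp11b2 and Cyp19a1 had none. Among the 6 genes of vitamin D and retinoid turnover, Cyp24a1, which breaks down active vitamin D in the intestine, was at 79.4 and 84.8, with a peak shared with the start of the neighbouring gene Pfdn4. The retinoic acid hydroxylases Cyp26a1, Cyp26b1 and Cyp26c1 lay between 17.1 and 24.15 in control and between 24.9 and 59.3 in Taf4-inactivated enteroids, when ranked by fold. Ranked by −log10 p, the percentile in Taf4-inactivated enteroids minus that in control was −19.2 points at Cyp26a1, 0.261 at Cyp26b1 and 5.63 at Cyp26c1, so that no common direction held. The Cyp26b1 peaks lay at an annotated start 5.76 to 5.81 kb from the 5′ end. Cyp27b1, which activates vitamin D, was at 22.7 and 16.6, and Cyp2r1 had a peak in control enteroids only (fold 2.08, percentile 58.6). Cyp20a1, an orphan P450 of unknown substrate, had the highest control peak of the family and lay at 99.2 and 99.6.

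**Figure D2:**
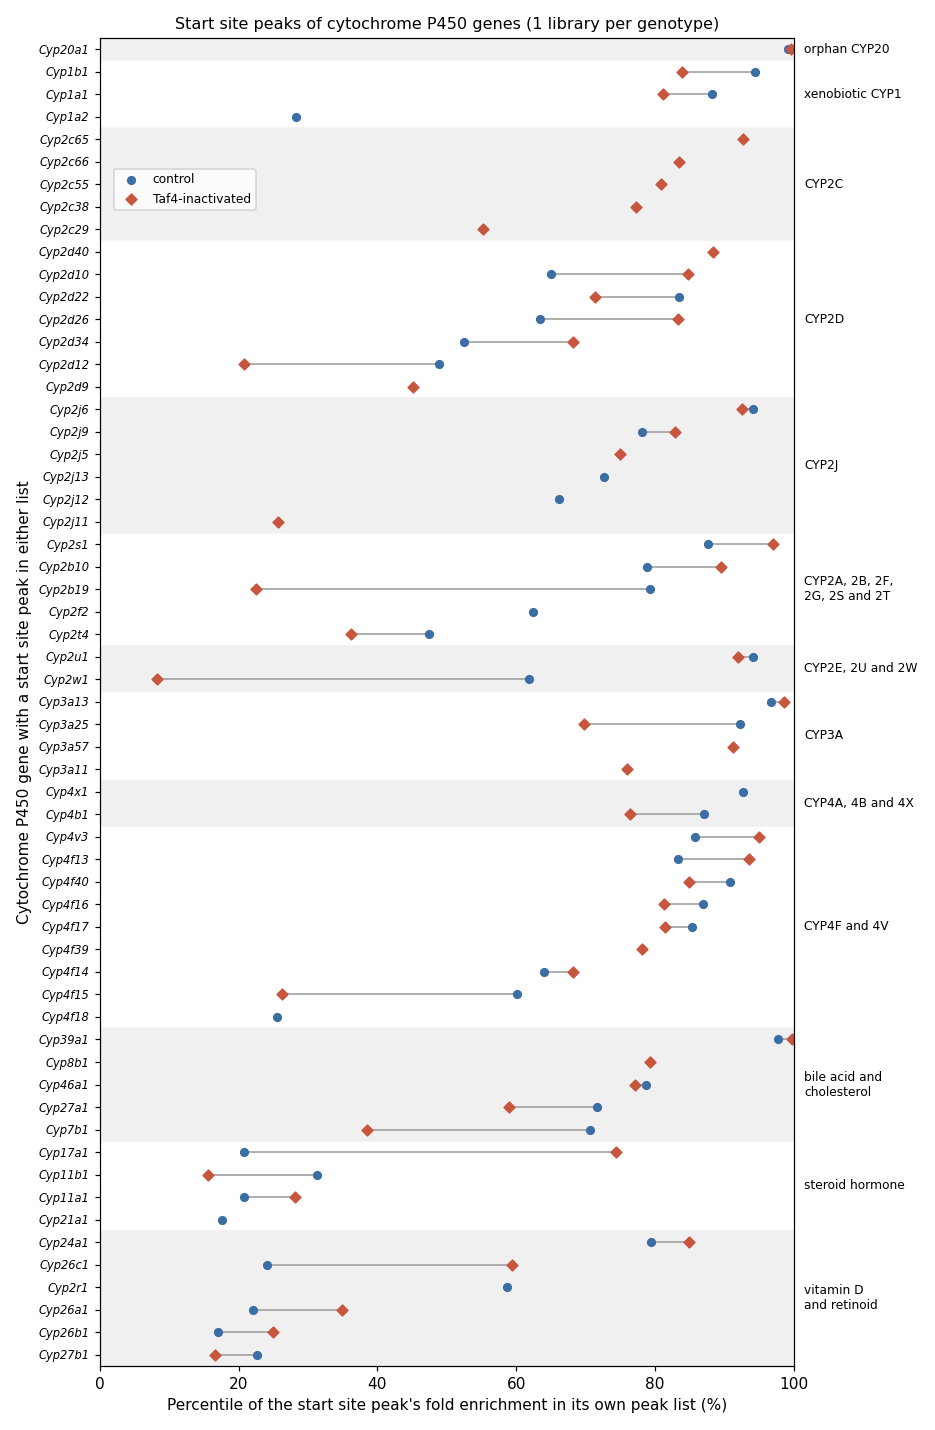
Percentile of the start site peak's fold enrichment in its own list (horizontal axis, %) for the 59 P450 genes with such a peak in either list (vertical axis), by role group or subfamily, with circles for control and diamonds for Taf4-inactivated enteroids (1 library each). Lines join the 38 genes with a peak in both lists, and a single symbol marks a gene with a peak in 1 list only, as at all 5 CYP2C genes.

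Over the 38 genes with a peak in both lists, 18 had the higher percentile in Taf4-inactivated enteroids and 20 in control, with a median difference of −1.60 points, against −2.78 over all 14022 such protein-coding genes. A percentile at least 25 points higher in Taf4-inactivated enteroids was seen at 2 genes (5.26%, against 5.93%), Cyp17a1 and Cyp26c1, and at 0 when peaks were ranked by −log10 p. One at least 25 points higher in control was seen at 5 genes (13.2%, exact 95% interval 4.41 to 28.1, against 9.07%), Cyp2b19, Cyp2w1, Cyp4f15, Cyp7b1 and Cyp2d12. Both background shares lay within the intervals of the P450 genes, which for the first ran from 0.644 to 17.75%. The peaks of the pair overlapped at 34 of the 38 genes, and did not at Cyp2d12, Cyp4f13, Cyp17a1 and Cyp11a1.

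Most P450 start sites were poor in CpG. The ratio of observed to expected CpG within 250 bp of the 5′ end had a median of 0.162, against 0.588 over all protein-coding genes, and was below 0.6 at 82 of the 90. Of the 8 genes above this ratio, all had a start site peak in control and 7 in Taf4-inactivated enteroids, Cyp2r1 being the exception. Within the CpG-poor genes the comparison with the rest of the genome changed. In control enteroids 46.3% of the 82 genes (exact 95% interval 35.25 to 57.7) had a start site peak, against 42.2% of the 11400 CpG-poor protein-coding genes, and in Taf4-inactivated enteroids 53.7% (42.3 to 64.75), against 37.35%. A peak in Taf4-inactivated enteroids only was found at 15.85% (8.72 to 25.6), against 4.40% (4.03 to 4.80), and a peak in control enteroids only at 8.54% (3.50 to 16.8), against 9.22%.

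**Figure D3:**
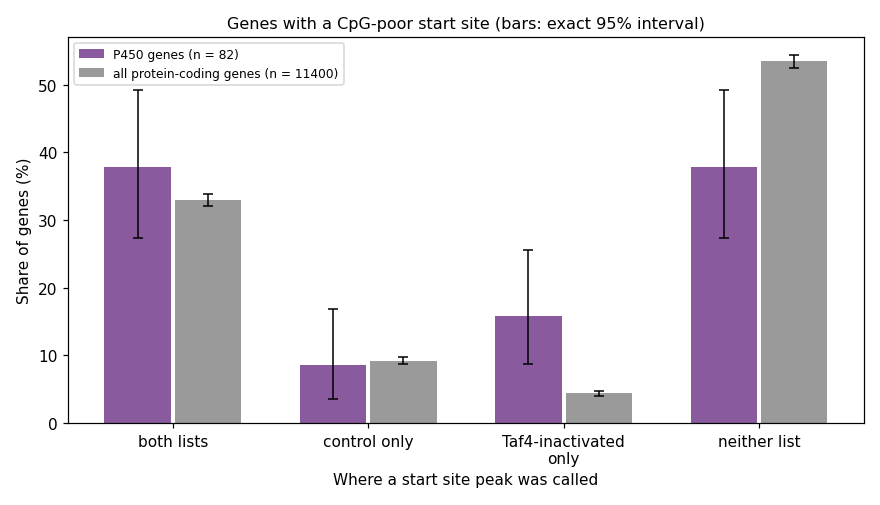
Share of genes with a CpG-poor start site (vertical axis, %) whose start site peak was called in both lists, in control only, in Taf4-inactivated only or in neither (horizontal axis), for 82 P450 genes and 11400 protein-coding genes, with exact 95% intervals. Peaks in Taf4-inactivated enteroids only were found at 15.85% of these P450 genes and 4.40% of these protein-coding genes.

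Uniquely mapping reads were kept by the authors, and many P450 start sites have near copies elsewhere in the genome. The share of 32-base words within 500 bp of the 5′ end that occur once in mm9 had a median of 99.5% at the 38 genes with a peak in both lists and of 68.8% at the 31 genes with none. Of the 9 genes below 50%, 1 had a start site peak in either list (11.1%, against 9.26% of protein-coding genes in this range). Of 28 genes between 50% and 90%, 14 had one (50%, against 38.8%), and of 53 genes above 90%, 44 (83.0%, against 81.7%). The lowest shares belonged to Cyp2b13 (31.1%), Cyp2b9 (32.1%), Cyp2a4 and Cyp2a5 (37.6% each) and Cyp2c40 (40.5%), where unique reads can cover only part of the start site and no peak was called. The 13 genes with a peak in Taf4-inactivated enteroids only had a median of 92.7%, and the 8 in control only a median of 100%.

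Motifs were searched within 300 bases before to 100 bases after the 5′ end, on both strands, except TATAAA, which was searched on the gene's strand 40 to 15 bases before it. The letters CAAAGNNCA, found in binding sites of HNF4, a nuclear receptor of gut and liver, were present at 31 of the 90 genes (34.4%, exact 95% interval 24.7 to 45.2), against 7.79% of all and 10.01% of CpG-poor protein-coding genes. They were found at 7 of 8 CYP2D, 6 of 7 CYP3A and 10 of 15 CYP2C genes, and at no CYP1, CYP2J or CYP4F gene. The 35 matches had their centres at a median of 71 bases before the 5′ end. As the arrays arose by gene duplication, neighbouring matches can be copies of each other and are not independent.

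The CYP2D matches are shown because all 7 lie between 46 and 85 bases before the 5′ end and 6 of them hold the same 9 letters, CAAAGGGCA. Each line gives the match in capitals with 10 bases on either side.
Cyp2d9 (chr15:82282747-82282775, plus strand): acacagaggaCAAAGGGCAaccctggcac
Cyp2d10 (chr15:82237659-82237687, minus strand): acacagaggaCAAAGGGCAaccctggcac
Cyp2d11 (chr15:82224499-82224527, minus strand): acacagagaaCAAAGGGCAaccctggcac
Cyp2d12 (chr15:82385457-82385485, plus strand): acacagaagaCAAAGGGCAaccctggcac
Cyp2d26 (chr15:82624715-82624743, minus strand): aggcagagaaCAAAGTGCAgccttcccct
Cyp2d34 (chr15:82451408-82451436, minus strand): tagtagaggaCAAAGGGCAaccctggcac
Cyp2d40 (chr15:82594647-82594675, minus strand): gggcagaggaCAAAGGGCAacctggacac

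The CYP2C matches shown are those of Cyp2c65, whose start site peak was found in Taf4-inactivated enteroids only, and of 4 genes of the same array. These 4 hold the same 9 letters and had no start site peak. Cyp2c70, also without one, holds these letters 13 bases before the 5′ end and is not shown. The matches shown lie between 41 and 121 bases before the 5′ end.
Cyp2c65 (chr19:39135370-39135398, plus strand): gatgttggaaCAAAGTCCActgggaggag
Cyp2c67 (chr19:39723639-39723667, minus strand): atcattgagaCAAAGTCCAtttggaagca
Cyp2c68 (chr19:39815650-39815678, minus strand): atcattgaaaCAAAGTCCAattggaagag
Cyp2c40 (chr19:39887331-39887359, minus strand): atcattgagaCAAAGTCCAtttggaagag
Cyp2c69 (chr19:39961316-39961344, minus strand): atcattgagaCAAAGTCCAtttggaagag

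The CYP3A matches, together with those of Cyp8b1, are shown as they include 3 further genes with a peak in Taf4-inactivated enteroids only (Cyp3a57, Cyp3a11 and Cyp8b1) beside genes with the same 9 letters and a peak in both lists (Cyp3a25) or in neither (Cyp3a16 and Cyp3a59).
Cyp3a57 (chr5:146105951-146105979, plus strand): aatataagctCAAAGGTCAgagtagggaa
Cyp3a25 (chr5:146821355-146821383, minus strand): aatataagctCAAAGGTCAgagtaagaaa
Cyp3a59 (chr5:146890644-146890672, plus strand): aatataagctCAAAGGTCAgagtaaaaaa
Cyp3a16 (chr5:146230673-146230701, minus strand): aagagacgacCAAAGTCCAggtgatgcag
Cyp3a44 (chr5:146617527-146617555, minus strand): aagatacgacCAAAGTACAggtgatgcag
Cyp3a11 (chr5:146691521-146691549, minus strand): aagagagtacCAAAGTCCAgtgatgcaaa
Cyp3a11 (chr5:146691757-146691785, plus strand): agttcacagaCAAAGTTCAaagcaaaata
Cyp8b1 (chr9:121825472-121825500, minus strand): agcctctgagCAAAGTCCAagggcaggaa
Cyp8b1 (chr9:121825647-121825675, minus strand): tgaacagtagCAAAGTGCAcagctggcac

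By call, the CAAAGNNCA letters were present at 6 of the 13 genes with a peak in Taf4-inactivated enteroids only (46.15%, exact 95% interval 19.2 to 74.9), at 1 of 8 in control only (12.5%), at 7 of 38 in both (18.4%) and at 17 of 31 in neither (54.8%, 36.0 to 72.7). Over all CpG-poor protein-coding genes the same shares were 11.75%, 8.94%, 9.88% and 10.1%. Of the CYP2C genes, 1 of the 5 with a start site peak held the letters, Cyp2c65, and 9 of the 10 without a peak did. The share of unique words near the 5′ end was 87.8 to 96.5% at those 5 and 40.5 to 100% at the 10. The part of unique mapping in this contrast was not tested. The letters stood at 6 of 7 CYP2D genes with a peak and at the 1 without, and at 3 of 4 CYP3A genes with a peak and at all 3 without. A match is a description of the sequence and not a measurement of binding.

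**Figure D4:**
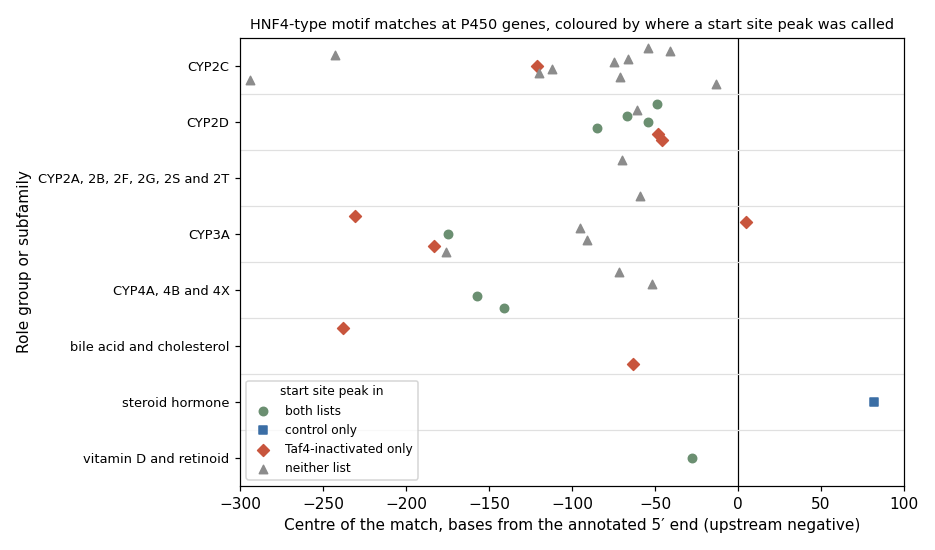
Centre of each CAAAGNNCA match in bases from the annotated 5′ end (horizontal axis, upstream negative) for the 31 P450 genes with a match, by role group or subfamily (vertical axis). Symbols show in which list the gene had a start site peak, and the 7 CYP2D matches lie within 85 bases before the 5′ end.

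The core letters of the xenobiotic response element bound by the aryl hydrocarbon receptor, GCGTG, were present at 22 genes (24.4%), against 43.0% of all and 21.6% of CpG-poor protein-coding genes. Cyp1a1 and Cyp1b1 were among them and Cyp1a2 was not. GCGTG was present at 16 of the 38 genes with a peak in both lists (42.1%) and at 4 of 8 in control only (50%). It was present at 1 of 13 in Taf4-inactivated enteroids only (7.69%, exact 95% interval 0.195 to 36.0) and at 1 of 31 in neither (3.23%). Over CpG-poor protein-coding genes these shares were 32.7%, 26.55%, 24.9% and 13.6%, each within the exact 95% interval of the matching P450 share. TATAAA stood at 10 genes (11.1%, exact 95% interval 5.46 to 19.5), against 2.38% of all and 3.97% of CpG-poor protein-coding genes. These included Cyp2c55, Cyp2c38 and Cyp8b1 of the genes with a peak in Taf4-inactivated enteroids only, Cyp1a2 of those in control only, and Cyp1a1.

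The other motifs came closer to their background. The nuclear receptor half-site AGTTCA was found at 25 genes (27.8%, against 17.3% of all and 22.7% of CpG-poor genes) and the CDX-type letters TTTATNG at 15 (16.7%, against 13.6% and 18.45%). The AP-1 site TGANTCA was found at 8 genes (8.89%, against 8.73% and 12.5%), among them Cyp2s1 and Cyp3a13, whose printed promoter holds it at 2 places. HNF1-type letters GTTAATNAT stood at 3 genes (3.33%, against 0.876% and 1.40%), Cyp17a1, Cyp4a32 and Cyp2f2, and the sterol response letters TCACNCCA at 3 (3.33%, against 5.26% and 6.35%).

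Distal peaks were those in a gene body plus 10 kb on either side and not within 1 kb of any gene's start site. The windows of the 90 genes spanned 4041 kb and held 117 distal peaks in control and 114 in Taf4-inactivated enteroids, or 2.90 (exact Poisson 95% interval 2.395 to 3.47) and 2.82 (2.33 to 3.39) per 100 kb. Over all protein-coding genes the density was 3.53 in control and lower, at 2.695, in Taf4-inactivated enteroids. No peak of the other list overlapped 54.7% of the control and 54.4% of the Taf4-inactivated distal peaks, against 60.9% and 48.4% over all protein-coding genes. At a −log10 q of 2 or more in both lists, 48 control and 87 Taf4-inactivated distal peaks remained in these windows. Matching values over all protein-coding genes are not given here. Whether that shift is particular to P450 windows was thus not tested. At least 1 distal peak lay in 57 windows in control and in 56 in Taf4-inactivated enteroids, and 18 genes had neither a start site peak nor a distal peak in either list.

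Density varied widely between arrays. The Cyp4f array on chromosome 17 was densest in both when genes were joined over gaps of up to 500 kb, with 14 peaks (6.10 per 100 kb, 3.33 to 10.2) in control and 15 (6.53, 3.66 to 10.8) in Taf4-inactivated enteroids. Joined over at most 200 kb, the Cyp2d array was densest in control, with 5.59 against 5.38 at Cyp4f, and Cyp4f in Taf4-inactivated enteroids, with 5.98. The Cyp2c array on chromosome 19 (1.29 and 1.39) and the Cyp2j array on chromosome 4 (1.17 in both) were sparsest in both, and in control their upper limits of 2.25 and 2.72 lay below the density over all protein-coding genes. The share of words occurring once in the genome was a median of 61.9% over the Cyp2c windows, 75.03% over the Cyp2j windows and 92.4% over the Cyp4f windows. The Cyp2d array (10 and 7 peaks), the mixed Cyp2 array on chromosome 7 (10 and 13), the Cyp4a, 4b and 4x array (5 and 4) and the Cyp1a and Cyp11a1 array (4 and 3) had overlapping intervals between libraries.

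Among the role groups, the CYP3A genes had the widest absolute difference in density between the libraries. Their 7 windows held 5 distal peaks in control enteroids (1.35 per 100 kb, exact Poisson 95% interval 0.437 to 3.14) and 15 in Taf4-inactivated enteroids (4.04, 2.26 to 6.67), and 11 of the 15 had no control partner. Over all protein-coding genes the densities were 3.53 and 2.695. Words occurring once in the genome made up a median of 67.75% over the CYP3A windows. Cyp3a13 had 0 in control and 4 in Taf4-inactivated enteroids, Cyp3a11 0 and 3, and Cyp3a25 1 and 3. The bile acid and cholesterol group showed the opposite at the same ratio, with 12 distal peaks in control (2.73, 1.41 to 4.77) and 4 in Taf4-inactivated enteroids (0.910, 0.248 to 2.33). Cyp46a1 accounted for 6 and 2 of them and Cyp27a1 for 4 and 2. The 4 control peaks of Cyp46a1 without a partner were near the calling threshold, at percentiles 0.139 to 3.24 and a −log10 q of 1.065 to 1.48. The 4 control peaks of Cyp27a1 lay between percentiles 49.95 and 92.3. Cyp2b10 had 1 distal peak in control and 5 in Taf4-inactivated enteroids, and Cyp4f18 had 4 and 0. At the CYP3A genes and at the bile acid and cholesterol genes the intervals of the libraries overlapped.

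**Figure D5:**
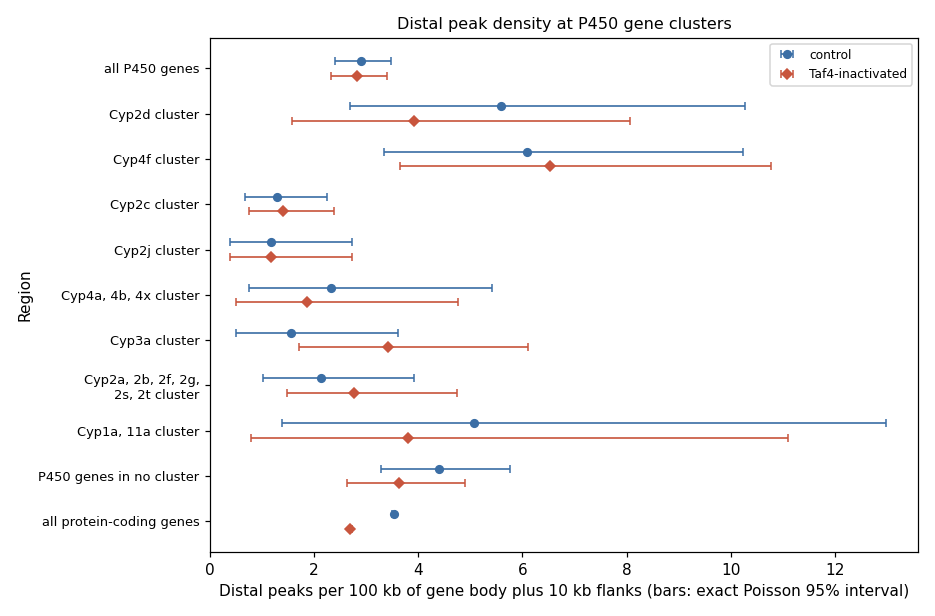
Distal peaks per 100 kb of gene body plus 10 kb flanks (horizontal axis) with exact Poisson 95% intervals for the P450 arrays, for P450 genes in no array and for all protein-coding genes (vertical axis), in control (circles) and Taf4-inactivated enteroids (diamonds). With genes joined over gaps of up to 500 kb the Cyp4f array was densest (at 200 kb Cyp2d in control), the Cyp2c and Cyp2j arrays sparsest, and intervals of the libraries overlapped at every array.

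The strongest control peak was in an intron of Cyp2j13 (chr4:95720088-95720558, fold 3.95, percentile 99.75) and had a partner in Taf4-inactivated enteroids. Peaks downstream of Cyp2d22, in an intron of Cyp4f15 and over an exon of Cyp4f39 were among the 5 strongest in both lists. Among distal peaks without a partner, the strongest in Taf4-inactivated enteroids lay in an intron of Cyp2c69 (chr19:39940660-39941117, fold 4.29, percentile 95.97), in an intron of Cyp4f13 (fold 3.89, percentile 92.5), upstream of Cyp3a11 (chr5:146692832-146693181, fold 3.66, percentile 89.6) and upstream of Cyp2b10 (chr7:26672784-26673261, fold 3.63, percentile 89.2). The strongest in control enteroids lay upstream of Cyp26c1 inside the neighbouring gene Exoc6 (fold 2.675, percentile 91.99), at 2 places in introns of Cyp2c66 (fold 2.40 and 2.38) and in an intron of Cyp27a1 (fold 2.38). Of the control distal peaks without a partner 1 was in the top 10% of its list by fold, and of the Taf4-inactivated ones 2 were.

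The lists of genes by tissue hold a choice of genes and were made with earlier results of these data known. A start site peak was called at all 17 P450 genes of the intestinal list, at 13 of them in both libraries. At 4 it was called in Taf4-inactivated enteroids only (Cyp3a11, Cyp2c55, Cyp2c65 and Cyp2c66) and at 0 in control only. Over all protein-coding genes these calls made up 62.7%, 2.90% and 5.70%, with 28.7% in neither. Of 13 genes known mainly from liver, adrenal gland or gonad, 4 had a peak in both lists, 2 in control only, 1 in Taf4-inactivated enteroids only and 6 in neither. Of those 6, unique words near the 5′ end made up 37.6% at Cyp2a4 and Cyp2a5 and 63.1% at Cyp11b2. They made up 100% at Cyp7a1, Cyp19a1 and Cyp2e1. Among the 13 intestinal genes with a peak in both lists, the median percentile was 87.6 in control and 83.8 after Taf4 inactivation. For the 4 such genes of the other list the medians were 26.04 and 33.3. Gene by gene, Taf4-inactivated minus control, the median difference was −1.69 points for the intestinal genes (6 higher, 7 lower). For the other 4 it was −4.14 points (2 higher, 2 lower), so the 2 medians there show no common rise. Redox partners, regulators and P450 genes with symbols of other forms formed a further list. Of the 21 found in the annotation 20 had a start site peak in each library and Ptgis in control only, and none differed by 25 points or more. The oxidoreductase gene Por ranked 88.3 in control enteroids and 89.8 after Taf4 inactivation, Hnf4a at 90.5 and 91.3, Ahr at 97.1 and 95.9, and the xenobiotic receptor Nr1i2 at 54.9 and 46.3.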

How the data were processed

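The data were ATAC-seq peaks of 2 enteroid libraries, 1 per genotype as the labels give it. Per the labels and the study's methods, the authors demultiplexed reads with bcl2fastq 2.17.1.14, mapped them to mm9 with Bowtie 1.0.0, keeping unique reads, and ran MACS2 2.1.1 on each library for broad peaks, with no model, a shift of −100 and an extension of 200 bp. The treatment of duplicate and mitochondrial reads is not given in the sources used here. The deposited fold is enrichment over the background of the same library, the deposited −log10 p and q values were averaged over the peak by the caller, and the deposited score is 10 times −log10 q cut to a whole number.

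Genes came from the annotation of the same build (GENCODE, NCBIM37). Percentiles are ranks of fold within a list. Peaks were partners with at least 1 bp of overlap. Arrays joined genes over gaps of at most 500 kb and held at least 3. Motifs and 32-base words were read from the genome on both strands. Shares have exact Clopper-Pearson and densities exact Poisson 95% intervals, which cover counting error only, with no p-value. Depth was estimated from the background that fold and p imply, at percentile 5 of the narrowest 10% of peaks. Peak assignment, depth and word counts were tested on simulated data. Python 3.11.15, numpy 2.4.6, pandas 2.3.3, scipy 1.17.1, numba 0.67.0 and matplotlib 3.10.9 were used.

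The genes and lists were chosen with earlier results of these data known. Named were all genes with a start site peak in 1 list only, the 10 highest percentiles per list, the 5 largest percentile differences in each direction, the 5 highest distal peaks per list with and without a partner, all arrays, and lists by tissue and role. Genes outside these rules are named to complete their array, and the motif matches shown were chosen after they were seen. Promoters were shown with 30 transcribed bases. The rule left out 8 symbols of other forms.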

Additional observations from a re-analysis of the deposited data

How the results depend on the processing

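No paired analysis was possible because each genotype had 1 library. Thresholds moved counts most. At a −log10 q of at least 5 in both lists, start site peaks fell to 12 genes in control and 30 in Taf4-inactivated enteroids, with 10 in both, 2 in control only, 20 in Taf4-inactivated only (22.2%, against 12.4% of all protein-coding genes) and 58 in neither; distal peaks fell to 9 and 34 (0.223 and 0.842 per 100 kb), of which 11.1% and 76.5% had no partner. At 2 or more, distal peaks were 48 in control (1.19 per 100 kb) against 2.15 per 100 kb in Taf4-inactivated enteroids, 70.1% of the latter without a partner, and with the 40000 strongest peaks of each list 43 (1.06) against 1.88, with 69.7%. The near equality of distal peaks thus held at the deposited threshold and not at stricter ones. Distal values over all protein-coding genes at the stricter thresholds are not given here. Their start site peaks stood at 60.65% in control and 60.2% in Taf4-inactivated enteroids at 2 or more, and at 35.5% and 46.5% at 5 or more. Whether the distal shift is particular to P450 windows was not tested. Gene bodies alone held 57 and 47 distal peaks (2.39 and 1.97 per 100 kb), flanks of 50 kb gave 273 and 258, and an overlap of 50% of both peaks left 69.2% and 68.4% without a partner. For percentile differences, ranking by −log10 p left 0 rises, an overlap of 50% left 1 rise and 1 fall, and a threshold of 50 points 1 and 2. The count of 13 genes in Taf4-inactivated only ran from 12 to 15 under all alternatives but the one at 5. The wider rule with 98 symbols gave 13 as well. With 1 library each, no difference can be told from variation between cultures.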

Other observations

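The 8 protein-coding symbols of other forms were Cyp51, the sterol demethylase of cholesterol synthesis, Cyp2ab1, 4 near-identical pair members (Cyp3a41a, Cyp3a41b, Cyp4a12a and Cyp4a12b) and 2 pseudogene symbols (Cyp2d37-ps and Cyp2j7-ps). The start site peak of Cyp51 ranked 99.3 (percentile of its list) in control enteroids and 93.4 after Taf4 inactivation, and that of Cyp2ab1 46.3 and 26.1. Cyp2j7-ps had one in control enteroids only, at percentile 25.7, and the other 5 had none. At the paired genes between 12.3% and 27.0% of the 32-base words near the 5′ end occurred once in the genome.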
